A study of Mus musculus with 4 samples.

Results

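The genes described here encode the nuclear subunits of oxidative phosphorylation, the process by which mitochondria pass electrons from nutrients to oxygen and use the resulting proton gradient to make ATP. They were taken by symbol: every gene whose single annotated symbol starts with Nduf, Uqcr or Atp5, is Sdha to Sdhd, or is Cox followed by a digit from 4 to 8. One gene that the symbols would match was left out by that rule. This gave 89 of the 18194 named genes on the array. Of these, 72 were sorted by their known place into ubiquitous subunits, with 33 in complex I, 4 in complex II, 8 in complex III, 10 in complex IV and 17 in complex V. A further 8 are tissue-specific isoforms, and 9 are assembly factors or related proteins that share the symbol stem. Where a gene had several probe sets, the one brightest on average was read, and 84 of the 89 reached the brightness filter, an intensity of 66.2.

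Cultured mouse osteoblasts, the bone-forming cells, were measured on Affymetrix 3′ expression arrays. The control array was labelled 0 h, and the other 3 arrays came from cells given 10 nM insulin for 6, 12 or 24 h after serum starvation. All cells, the control included, lacked the IGF-1 receptor according to the growth protocol, whereas the genotype label names IGF-1 itself. How the gene was removed, whether the cells were 1 line, and whether the control was starved are not stated in the labels. There was 1 array per group and no untreated array beyond 0 h was analysed here, so no difference has an error or a p-value, and insulin and time in culture cannot be told apart. In such bulk RNA, fewer cells of a type and less RNA per cell cannot be told apart either.

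Complex I takes electrons from NADH and complex II takes them from succinate. Complex III passes them on to cytochrome c, complex IV hands them to oxygen, and complex V, the ATP synthase, lets protons flow back to make ATP. Most subunits are encoded in the nucleus and imported, and a few hydrophobic core subunits are encoded in mitochondrial DNA. Several small subunits of complex IV exist as a ubiquitous form and a form restricted to heart and muscle, lung or testis. Osteoblasts are known to use both glycolysis and respiration.

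The 0 h array stood apart from the insulin arrays in ways that touch every comparison with it. Eif2s3y, on the Y chromosome, was at 12.2 at 0 h and at 295 to 326 with insulin, and Xist, which silences an X chromosome, was at 109 and at 1278 to 1636. All 7 measured osteoblast markers were above the filter on the mean of the arrays, and 4 at 0 h. Runx2, Bglap and Spp1 were not among them, since no probe set carried their symbol alone. Ibsp, bone sialoprotein, had 202 at 0 h and 8849 to 13147 on the insulin arrays. The summed intensity of 9 macrophage markers was 789 at 0 h and 3224 to 5071 with insulin. Of the 7 above the filter, 3 were above it at 0 h. The rest passed it through the insulin arrays. At all 3 times 6 of the 7 were 1.5-fold higher and 1 lower, beside 17.0% and 10.5% of all genes. The lower one was Cd14, with 370 at 0 h and 153 to 162 with insulin. The 7 adipocyte markers summed to 10592 at 0 h and 4220.4 to 8538 with insulin, a drop that comes from Lpl, with 9525 at 0 h and 1492 to 3035 with insulin. Of the 5 above the filter 3 were 1.5-fold higher at all 3 times, beside 17.0% of all genes. At 6, 12 and 24 h 2, 1 and 1 were lower, beside 12.8%, 13.3% and 13.3%. Among the higher was Adipoq, with 23.4 at 0 h, under the filter value, and 511 to 1141 with insulin. It passed the filter through the insulin arrays. Pparg had 223 at 0 h and 107, 184 and 196 with insulin. Igf1r, the receptor the growth protocol names as missing, had 388 at 0 h and 259 to 319 with insulin, and Igf1 had 1641 and 5532 to 6024. Whether these probes fall in a deleted stretch is unknown, so they check nothing. The part of these differences in the results below was not tested, apart from the values by chromosome.

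The subunits of complexes I to V differed little from 0 h. Over the 71 subunits above the filter, the median log2 difference was 0.056 at 6 h, 0.082 at 12 h and 0.042 at 24 h, against 0.0059, 0.033 and -5.9e-05 over all 11662 genes above the filter. The typical size of a difference, in either direction, was a log2 value of 0.19, 0.20 and 0.21 at the 3 times, against 0.35, 0.38 and 0.37 over all genes. The direction of these medians turned at 6 and 24 h with median centring or loess, at 12 h with median centring, and at 12 and 24 h without suffixed probe sets. At 6 h, 2 subunits reached a fold of 1.5 upwards and 2 downwards, where 18.6% and 12.8% of all genes did. At 12 h the counts were 3 and 3, beside 20.5% and 13.3% of all genes. At 24 h they were 1 and 3, beside 19.5% and 13.3%. With median centring the counts higher and lower were 1 and 4 at 6 h, 1 and 6 at 12 h, and 1 and 5 at 24 h. Past 2-fold there were 0 higher and 1 lower subunit at each time, beside 10.6%, 11.7% and 11.1% of all genes higher and 4.62%, 5.31% and 4.82% lower. The 1 lower was Cox7c, whose values on the insulin arrays lay near the brightness filter. At a difference of 25%, 13, 17 and 13 subunits were higher and 7, 8 and 9 lower, beside 28.8%, 31.2% and 29.6% and 24.3%, 24.5% and 25.1% of all genes. The 3 comparisons share the 0 h array.

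Subunits are bright on these arrays, so the same values follow for other bright genes. Among the 1041 other genes at least as bright as the 10th percentile of the subunits, an intensity of 2423, the typical size of a difference was 0.31, 0.33 and 0.31. Of these bright genes 17.7% lay 1.5-fold or more above 0 h and 8.36% below it at 6 h, 19.0% and 9.32% at 12 h, and 18.2% and 9.32% at 24 h. This set was chosen after the values were seen, and the difference between it and the subunits was not tested.

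**Figure D1:**
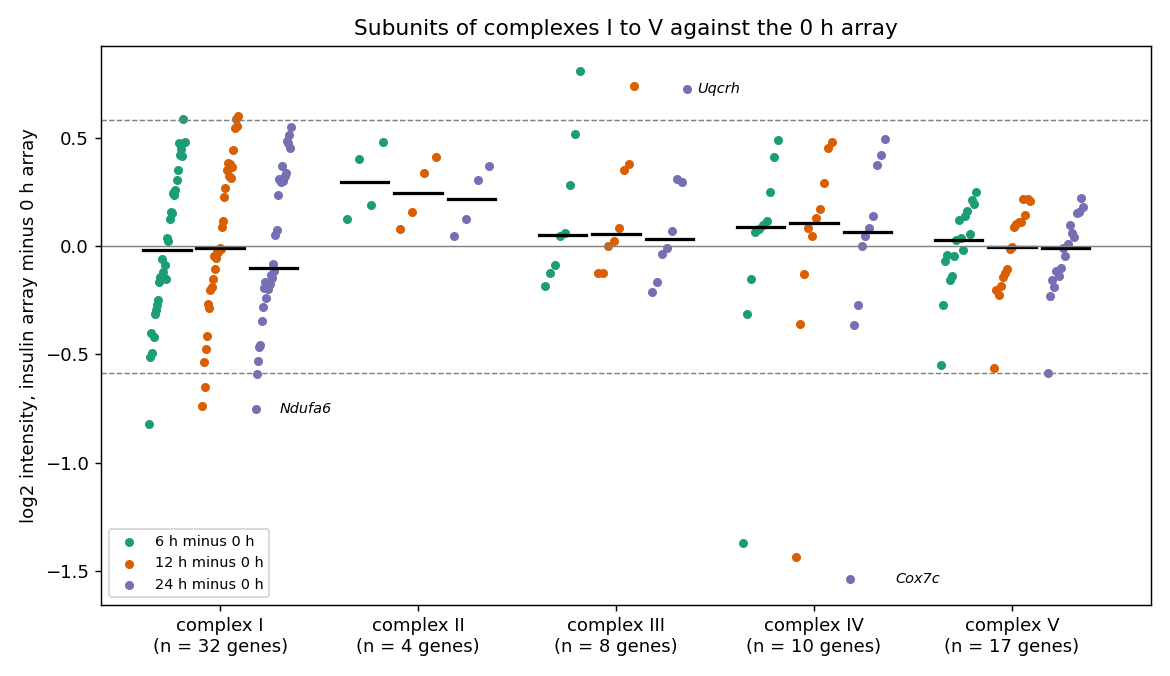
Log2 intensity of each insulin array minus the 0 h array (vertical axis) for the 71 subunits above the brightness filter, by complex (horizontal axis), with 1 point per gene and time, coloured by time. Black bars are medians over genes and dashed lines mark 1.5-fold; nearly all points lie between the dashed lines, and Uqcrh, Ndufa6 and Cox7c lie outside them at each time.

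Complex I, the NADH dehydrogenase, had subunits on both sides of 0. Over its 32 subunits above the filter the median differences were -0.015, -0.0095 and -0.099 at 6, 12 and 24 h, and 15 of the 32 were higher and 17 lower on the mean of the insulin arrays. The lowest was Ndufa6, an accessory subunit, with intensities of 3198, 1807, 1918 and 1898 at 0, 6, 12 and 24 h. All 3 insulin arrays were below the 0 h array, by 1.77, 1.67 and 1.69-fold. Ndufs8, a core subunit that carries iron-sulfur clusters, had 7610.5, 5333, 5257 and 5058. It was 1.43, 1.45 and 1.5-fold lower, and its 5 other probe sets were lower on each insulin array as well. Ndufb1, a membrane-arm accessory subunit, had 405, 307, 258 and 281 and passed 1.5-fold at 12 h alone, at 1.57-fold lower.

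On the higher side, Ndufa3, a membrane-arm accessory subunit, had 5524, 7720.5, 8392 and 8107, which is 1.40, 1.52 and 1.47-fold higher. Ndufab1, the mitochondrial acyl carrier protein, had 3949, 5945, 5808 and 5411. It was 1.51, 1.47 and 1.37-fold higher by this probe set, and 1.06, 1.06 and 1.13-fold by the other one above the filter (439, 466, 466 and 495). Ndufb6, another membrane-arm subunit, had 2944, 3935, 4426 and 4203 and reached 1.5-fold at 12 h. By a second probe set Ndufb6 was 1.31, 1.26 and 1.23-fold higher. These high and low members do not divide by role. Among the core subunits, Ndufs1, the largest iron-sulfur subunit, was 1.39, 1.29 and 1.26-fold higher, while Ndufv1, which binds NADH and FMN, was 1.24, 1.20 and 1.27-fold lower. The other Ndufv1 probe sets went apart: 1 was 1.47, 1.52 and 1.54-fold lower, and 1 was 1.06, 1.10 and 1.02-fold higher. Of the 6 core subunits above the filter 2 were higher and 4 lower on the mean of the insulin arrays, and of the 26 accessory subunits 13 and 13. The brightest probe set of the complex was that of Ndufa13, with 11096, 10036, 10878 and 10130.3. Ndufb4, the 1 ubiquitous subunit below the filter, had 24.2, 17.8, 16.1 and 15.1.

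Complex II, succinate dehydrogenase, is shared with the citric acid cycle. By their brightest probe sets all of its 4 subunits were higher on the insulin arrays. Sdhb, the iron-sulfur subunit, had 2702, 3773, 3596 and 3494 at 0, 6, 12 and 24 h. Sdhc, a membrane anchor, had 2284, 2606, 2886 and 2824, and Sdhd, the other anchor, had 1737, 2296, 1938 and 1899. None reached 1.5-fold: the farthest was Sdhb, at 1.40, 1.33 and 1.29-fold. Sdha, the flavoprotein subunit, had 2831, 3086, 2988 and 2928 and was the least different by these probe sets. Its direction turned when each array was centred on its median gene. A second Sdha probe set was 1.21, 1.43 and 1.34-fold higher, however. The second of Sdhc was 1.05 and 1.03-fold higher at 6 and 12 h and 1.03-fold lower at 24 h. The second of Sdhd was 1.02-fold lower at 6 h and 1.16 and 1.19-fold higher at 12 and 24 h.

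Complex III, the cytochrome bc1 complex, held the subunit farthest above 0 h. Uqcrh, the hinge protein that helps dock cytochrome c1 and cytochrome c, had 4413, 7731, 7382 and 7299. The insulin arrays were 1.75, 1.67 and 1.65-fold higher, and a second probe set was 1.46, 1.37 and 1.42-fold higher (3077, 4493, 4208 and 4369.8). Uqcrc1, a core subunit, had 2040.0, 2919.7, 2653 and 2504, with the 6 h array the highest. At the low end, Uqcrfs1, the Rieske iron-sulfur protein, had 1969.7, 1733, 1811 and 1701. Uqcrb, which helps hold the complex together, had the brightest probe set, with 15560.2, 16238, 16521 and 16357. Over the 8 subunits the medians were 0.054, 0.056 and 0.032, and the median on the mean of the insulin arrays, 0.047, was -0.054 with median centring and -0.010 with loess.

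Uqcr10, a small subunit of complex III, had probe sets that went apart. By the brightest it had 3650.2, 3354, 3351 and 3255, which is 1.09, 1.09 and 1.12-fold lower. A second probe set had 42.1 at 0 h, under the filter value, and 545, 609 and 525 on the insulin arrays, through which it passed the filter. Another had 162, 804, 849 and 735, which is 4.98, 5.26 and 4.55-fold higher. The 3 probe sets thus gave no single direction for this gene. Among the subunits, 43 had more than 1 probe set above the filter, with 65 further probe sets in all. Of these 13, from 12 genes, had a mean difference of the opposite sign to the representative, and 11 of the 13 lay within 0.25 of 0 on the log2 scale. The other 2 are the Uqcr10 probe sets, which were singled out after their values were seen.

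Complex IV, cytochrome c oxidase, leaned slightly higher with 1 subunit far below. Of 10 subunits 7 were higher and 3 lower at each time, and the medians were 0.090, 0.11 and 0.066. With median centring the median on the mean of the insulin arrays was -0.020 in place of 0.081. Cox6b1, which faces the intermembrane space where cytochrome c binds, had 8302, 11689, 11590.2 and 11707. Cox5b, a zinc-binding subunit on the matrix side, had 9611, 12800.5, 13171 and 12892. These were 1.41, 1.40 and 1.41-fold higher for Cox6b1 and 1.33, 1.37 and 1.34-fold for Cox5b. With suffixed probe sets left out, Cox5b was read by a probe set near the filter value (75.9 at 0 h) and its mean log2 difference was 0.084 in place of 0.43. Cox6c, a small transmembrane subunit, had 8999, 7252, 7025 and 6991. By a second probe set it had 3454, 3192, 3908 and 3725, lower at 6 h and higher at 12 and 24 h.

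Cox7c, another small transmembrane subunit, was the lowest subunit against 0 h. It had 179, 69.0, 65.9 and 61.4 by its brighter probe set, and 41.6, 18.7, 15.9 and 19.8 by the other, which was below the filter. The insulin arrays were 2.59, 2.71 and 2.91-fold lower by the brighter one. That probe set lay under the filter value of 66.2 at 12 and 24 h and barely above it at 6 h. It thus passed the filter, set on the mean of the arrays, through its 0 h value, and these folds rest on values near background. Cox4i1, the subunit through which ATP acts on the enzyme, and Cox6a1 were at most 1.10-fold higher than at 0 h on each insulin array.

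Complex V, the ATP synthase, was the most even of the larger complexes. Of its 17 subunits 16 had a mean log2 difference within 0.25 of 0, where 37.4% of all genes did. The catalytic subunit Atp5b had 9469, 10613, 10239 and 9748 at 0, 6, 12 and 24 h, and its partner in the head, Atp5a1, had 7092, 7717, 7085 and 6872. Neither was more than 1.12-fold from 0 h at any time. Atp5d, the delta subunit of the central stalk, had 7761, 9242, 8984 and 8806 and was the highest against 0 h, at 1.19, 1.16 and 1.13-fold. Atp5l, subunit g of the membrane part, was 1.14, 1.16 and 1.17-fold higher, and Atp5j2, subunit f, 1.21, 1.15 and 1.17-fold lower. The median of the complex on the mean of the insulin arrays, 0.025, was -0.076 with median centring.

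The ring of the ATP synthase, which turns as protons pass, is made of subunit c, and 3 genes encode it with the same mature protein. Atp5g2 had 6871, 4704, 4645 and 4582, lower by 1.46, 1.48 and 1.5-fold, which at 24 h falls just short of the threshold. Atp5g1 had 2809, 3252, 3102 and 3134, and Atp5g3 had 10202, 9899.5, 9497 and 9520.3. Against 0 h the first was lower, the second 1.16, 1.10 and 1.12-fold higher and the third 1.03, 1.07 and 1.07-fold lower.

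Tissue-specific isoforms held the largest differences of all 89 genes. Of the 8, 4 were above the filter, and Cox6b2 passed it through the insulin arrays. Cox6b2, the testis form of Cox6b1, had 40.9, 482, 519 and 479 at 0, 6, 12 and 24 h, under the filter value at 0 h and above it on all 3 insulin arrays. That is 11.8, 12.7 and 11.7-fold higher, and the low value at 0 h sets the size of the fold. With 32 added to each intensity, the mean log2 difference was 2.85 in place of 3.59. Ndufa4l2, a relative of Ndufa4 that is induced by low oxygen in many cells, had 107, 644, 821 and 781. It was 6.01, 7.68 and 7.30-fold higher, while Ndufa4, now counted with complex IV, had 4945, 4452, 4520.0 and 4093.

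Cox6a2, the heart and muscle form of Cox6a1, went the other way. It had 379.6, 193, 183 and 204, 1.96, 2.08 and 1.86-fold lower, and a second probe set, below the filter, was at 36.5 at 0 h and 20.9 at 12 h. Cox8c, a testis form, had 271, 237, 221 and 218. The remaining 4 were below the filter: Cox4i2, the lung form that responds to oxygen, had 45.8, 46.1, 49.6 and 48.7, and the testis form Cox7b2 had 20.1, 12.2, 13.1 and 13.1. Cox7a1, of heart and muscle, had 17.6, 23.6, 33.2 and 25.9, and Cox8b, of muscle and brown fat, had 45.6, 49.4, 62.3 and 61.3. No order or fold was read from these 4.

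Markers of muscle stood beside these values as follows. Of 13 skeletal and heart muscle markers 4 were above the filter. The summed intensity of all 13 was 725 at 0 h and 2202 to 2363 on the insulin arrays. Acta1, skeletal actin, had 130.2, 1712, 1802 and 1626 and made up most of the sum on the insulin arrays but not at 0 h, while the creatine kinase gene Ckm had 70.7, 62.3, 64.5 and 66.9 and the myogenic factor genes Myog and Myod1 were below the filter. The part of such cells in the isoform values was not tested.

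**Figure D2:**
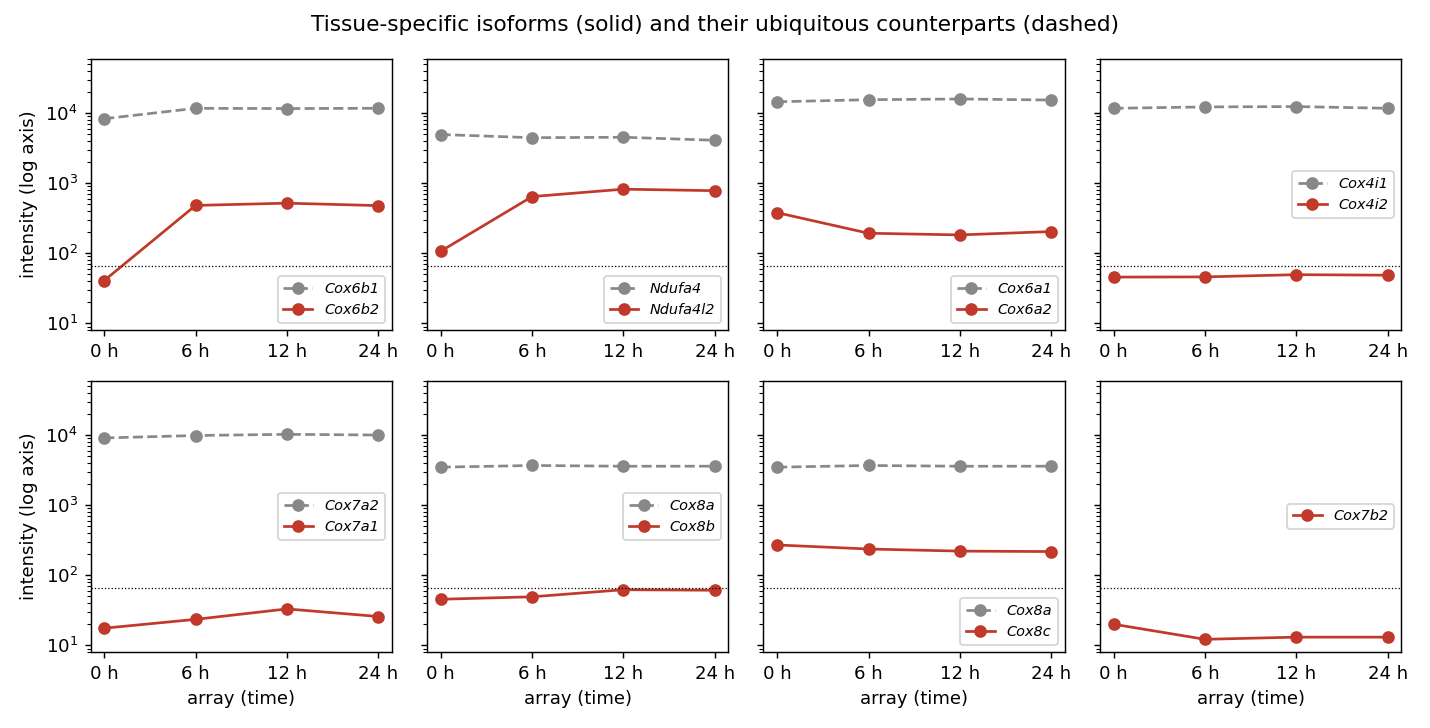
Intensity (vertical axis, log scale) on the 0, 6, 12 and 24 h arrays for each of the 8 tissue-specific isoforms (solid) and, where there is one, its ubiquitous counterpart (dashed). The dotted line is the brightness filter of 66.2; Cox6b2 and Ndufa4l2 are higher and Cox6a2 lower on the insulin arrays, and levels of different probe sets are not comparable with each other.

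The promoters of this pair of complex IV forms are shown because the subunit and its testis form differed so much in size of change. Both genes lie on chromosome 7, and the 100 bases before each start (RefSeq, GRCm38.p6, minus strand) are at chr7:4753095-4753194 for Cox6b2 and chr7:30626115-30626214 for Cox6b1.
Cox6b2: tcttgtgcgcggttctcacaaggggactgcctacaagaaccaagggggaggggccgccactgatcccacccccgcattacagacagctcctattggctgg
Cox6b1: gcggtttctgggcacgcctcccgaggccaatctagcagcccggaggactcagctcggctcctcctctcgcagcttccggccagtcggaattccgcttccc

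A set of 4 motifs was searched on both strands in the 250 bases before each start: GCGCATGC of the nuclear respiratory factor NRF1, CCGGAAGT of ETS factors such as GABP, AAGATGGC of YY1, and ACGTG, the core of the hypoxia response element. No motif holds another. NRF1 and GABP are known regulators of respiratory chain genes. Of the 89 genes, 73 had a promoter in the RefSeq table. Among 65 windows of subunits above the filter, the NRF1 letters were in 7 (10.8%), against 4.19% of 12056 windows of all genes above the filter. The longer form GCGCATGCGC, in which both strands carry them, was in 3 (4.62%), against 1.55%. The ETS letters were in 3, against 5.66%, the YY1 letters in 1, against 1.95%, and the hypoxia core in 15, against 21.3%. The motifs were chosen after expression values were seen, and the shorter NRF1 form after the longer one had been counted. The windows with the longer form are printed with the match in capitals, to set beside the genes' differences: Atp5g2 (chr15:102671060-102671109, minus strand), Atp5k (chr5:108434420-108434469, minus), Cox6a1 (chr5:115349091-115349140, minus) and the assembly factor Ndufaf4 (chr4:24897950-24897999, plus).
Atp5g2: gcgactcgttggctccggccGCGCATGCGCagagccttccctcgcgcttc
Atp5k: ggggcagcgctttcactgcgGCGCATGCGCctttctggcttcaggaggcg
Cox6a1: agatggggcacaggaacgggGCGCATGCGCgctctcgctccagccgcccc
Ndufaf4: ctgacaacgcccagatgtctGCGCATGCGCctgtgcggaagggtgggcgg

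The mean log2 differences of these 4 genes were -0.57 for Atp5g2, -0.14 for Atp5k, 0.11 for Cox6a1 and 0.09 for Ndufaf4, so they had no direction in common. Uqcrh, the highest subunit, held the ETS letters on the other strand, shown in capitals, close to its start (chr4:116075071-116075120, minus strand). A match is a stretch of letters and not a bound site.
Uqcrh: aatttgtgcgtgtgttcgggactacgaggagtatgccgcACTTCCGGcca

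Subunits of different complexes that lie on the same chromosome often had the same direction. On chromosome 4 all 4 subunits were higher on the mean of the insulin arrays, namely Sdhb, Ndufs5, Ndufb6 and Uqcrh, from 3 complexes, with log2 differences of 0.42 to 0.76. The 707 other genes of that chromosome had a median of 0.33. On chromosome 1 all 5 were higher (Sdhc, Ndufb3, Ndufs1, Cox5b and Ndufa10, 0.28 to 0.45), where the other genes had a median of 0.27. On chromosome 15 all 4 were lower (Ndufa6, Atp5g2, Ndufb9 and Cox6c, -0.77 to -0.34), beside a median of -0.19. These directions held under each of the 3 other scalings tried, though a second probe set of Cox6c had a mean log2 difference of 0.058. Chromosome 3 also had 3 of 3 subunits lower, beside -0.22, and chromosome 9 had 5 of 5 higher, beside 0.21.

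Over the 15 chromosomes with at least 3 subunits, the median of the subunits and the median of the other genes had a Pearson correlation of 0.86 and a Spearman correlation of 0.79, as a description of values that share the same 4 arrays. Of the 43 subunits on chromosomes whose other genes had a median at least 0.1 from 0, 36 had the sign of that median (83.7%), and so had 4374 of 6485 other genes (67.4%). With the chromosome median taken from each subunit, the standard deviation over the 71 subunits went from 0.35 to 0.27, and no subunit was 1.5-fold higher at any time. Uqcrh then had a mean log2 difference of 0.43 and Ndufa6 of -0.59, and Cox7c was -1.38. The complex II median went from 0.25 to 0.054: Sdhb, Sdhc and Sdhd lie on chromosomes 4, 1 and 9. Some subunits did not go with their chromosome, such as Ndufv3 on chromosome 17, with 0.33 beside -0.18 for the other genes. On chromosome 8, beside -0.25, Cox4i1 and Ndufb7 were at 0.050 and 0.057, while Ndufa13 was at -0.10. The sign of Cox4i1 and Ndufb7 depended on the scaling. Chromosomes were looked at with earlier results of these data known.

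**Figure D3:**
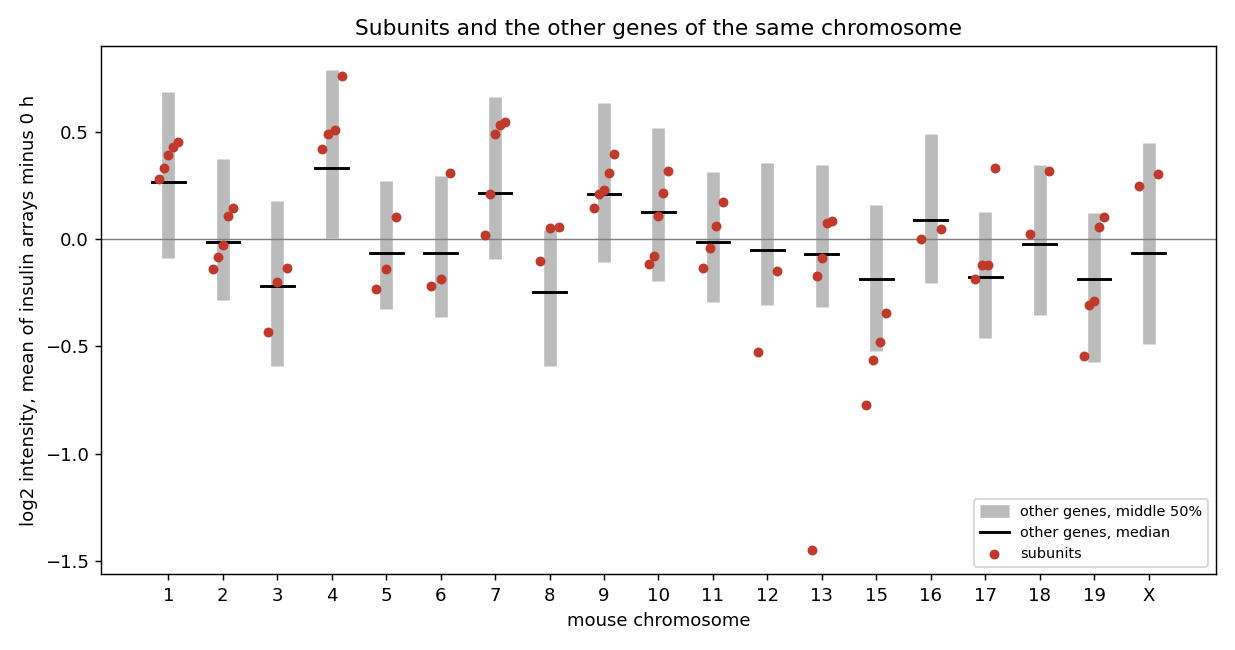
Log2 intensity of the mean of the insulin arrays minus the 0 h array (vertical axis) by mouse chromosome (horizontal axis). Red points are the 71 subunits, black bars the median and grey bars the span from the lower to the upper quartile of the other genes above the filter on that chromosome; subunits of chromosomes 1, 4 and 9 lie above 0 and those of 3 and 15 below, on the side of the other genes.

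Between insulin arrays the subunits hardly differed. No subunit was 1.5-fold apart between any pair of insulin arrays, beside 2.38% of all genes. Of the 1041 other genes of like brightness only 6 were that far apart. The typical size of a difference was a log2 value of 0.060 from 6 to 12 h, 0.063 from 6 to 24 h and 0.042 from 12 to 24 h. Over all genes it was 0.10, 0.095 and 0.088, and over the bright genes 0.071, 0.069 and 0.052, nearer to the subunits. For the subunits against 0 h it was 0.19 or more. For 12 h against 6 h, 1.14% of all genes were 1.5-fold higher and 0.334% lower. For 24 h against 6 h these shares were 1.68% and 0.12%, and for 24 h against 12 h they were 0.103% and 0.103%.

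The subunits farthest apart between insulin arrays were Sdhd, Ndufb1 and Uqcrc1. Sdhd and Uqcrc1 were highest at 6 h, with log2 differences of -0.27 and -0.22 at 24 h against 6 h. A second Sdhd probe set went the other way, with 326, 384 and 395 at 6, 12 and 24 h. Ndufb1 was lowest at 12 h, with -0.25 against 6 h. At 12 h, 22 of the 26 accessory subunits of complex I were higher than at 6 h, with a median of 0.064, beside 6652 of all 11662 genes and a median of 0.027. With median centring this was 17 of 26 and 0.014. In complex V 10 of 17 were lower at 12 h than at 6 h, with a median of -0.029, beside 4984 of all genes. At 24 h against 12 h, 52 of 71 subunits were lower, among them all 8 of complex III, all 4 of complex II and all 6 core subunits of complex I, with a median of -0.034. Over all genes 6816 of 11662 were lower, with a median of -0.027. With median centring 37 of 71 subunits were lower, with a median of -0.0030, and the median for 12 h against 6 h over all subunits was -0.032 in place of 0.018. Without replicates these small differences have no error to be read against. Ndufa4l2 was the isoform above the filter that differed most, 0.35 higher at 12 h than at 6 h.

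Assembly factors and other genes that share the symbols were modest in size. None of the 9 reached 1.5-fold at any time. Cox7a2l, which helps join complexes III and IV into a supercomplex, had 6579, 4571, 4665 and 5091, which is 1.44, 1.41 and 1.29-fold lower. Ndufaf1 and Ndufaf3, assembly factors of complex I, were 1.12, 1.22 and 1.19-fold and 1.15, 1.27 and 1.13-fold higher, and 6 of the 9 had a mean difference below 0.

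Other mitochondrial genes, from lists chosen by their known roles, gave a mixed background. Of 10 further genes of the respiratory chain and its carriers 0 lay 1.5-fold above 0 h, while 0, 1 and 2 lay as far below it at 6, 12 and 24 h. Over all genes 18.6%, 20.5% and 19.5% lay that far above 0 h and 12.8%, 13.3% and 13.3% below it, and the counts of the other lists are to be read beside the same shares. Cyc1, the cytochrome c1 subunit of complex III, had 4240.1, 3346, 3148 and 2799.6, 1.27, 1.35 and 1.51-fold lower. Dhodh, which feeds electrons from pyrimidine synthesis, had 319, 213, 190.3 and 151. Etfa, an electron carrier of fat oxidation, and Etfdh, which passes those electrons to ubiquinone, were the next farthest, with mean log2 differences of -0.42 and -0.39. ND5, the single gene of the mitochondrial DNA named on the array and a proton-pumping subunit of complex I, had 17221, 12046, 11363 and 11845, 1.43, 1.52 and 1.45-fold lower.

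Of 24 assembly factors outside the symbol rule, 3, 3 and 3 reached 1.5-fold upwards and 1, 1 and 2 downwards. The shares of all genes were 18.6%, 20.5% and 19.5% upwards and 12.8%, 13.3% and 13.3% downwards, and a difference from them was not tested. Timmdc1, of complex I, had 168, 504, 571 and 502, and Sdhaf1, of complex II, had 242, 564, 589 and 566. Tmem70, of the ATP synthase, had 578, 1145, 1044 and 1029, while Oxa1l, the membrane insertase, had 494, 304, 319 and 291. Of 16 genes of the citric acid cycle and pyruvate dehydrogenase 1, 2 and 1 were 1.5-fold higher and 2, 3 and 3 lower, beside those shares. Idh2, the NADP-dependent isocitrate dehydrogenase, had 2129, 827, 921 and 943. Suclg2, a succinyl-CoA ligase subunit, was 1.66, 1.54 and 1.65-fold lower, Dld, the shared dehydrogenase subunit, 1.44, 1.53 and 1.63-fold lower, and Ogdh, of the oxoglutarate dehydrogenase complex, 1.54, 1.63 and 1.69-fold higher. The medians of both lists lay between -0.0016 and 0.14.

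Regulators of mitochondrial gene expression had lower medians than the subunits of complexes I to V. Of 14 above the filter, 6, 5 and 5 lay 1.5-fold or more below 0 h and 1, 1 and 1 above, beside 12.8%, 13.3% and 13.3% of all genes below and 18.6%, 20.5% and 19.5% above. The medians were -0.40, -0.39 and -0.55. Ppargc1b, a coactivator of mitochondrial genes, had 133, 57.2, 47.8 and 56.1, so it passed the filter through its 0 h value alone, and Ppargc1a, its relative, was below the filter. Twnk, the mitochondrial DNA helicase, had 509, 298, 305 and 286, and Tfam, which packages that DNA, had 715, 431, 449 and 454. Lonp1, a matrix protease, was 1.69, 1.65 and 1.75-fold lower, while Polg, the mitochondrial DNA polymerase, had 182, 328, 342 and 289. Nrf1 itself, whose motif was searched, had 193, 153, 154 and 131.

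Of 6 oxygen-regulated mitochondrial genes above the filter, which include Ndufa4l2 and Lonp1, 4, 4 and 4 were 1.5-fold higher and 1, 2 and 1 lower, beside 18.6%, 20.5% and 19.5% of all genes higher and 12.8%, 13.3% and 13.3% lower. Higd1a, a small protein of the respiratory chain induced by low oxygen, had 2078, 6509, 5445 and 5705. Bnip3, which marks mitochondria for removal, had 913, 3259.5, 2343 and 2376, and Pdk1, a kinase that inhibits pyruvate dehydrogenase, had 490.0, 1020.3, 822 and 798. These were highest at 6 h, whereas Ndufa4l2 was highest at 12 h. The list holds genes of a set whose differences from 0 h were known beforehand, so its direction is not independent evidence.

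**Figure D4:**
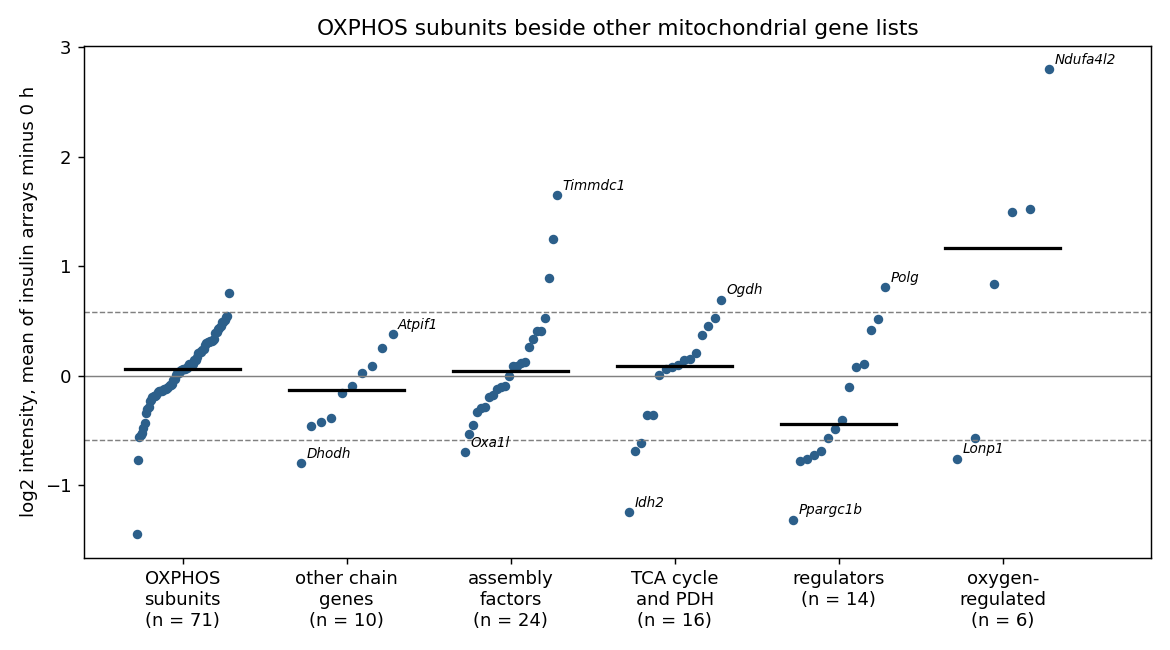
Log2 intensity of the mean of the insulin arrays minus the 0 h array (vertical axis) for the OXPHOS (oxidative phosphorylation) subunits and 5 other lists of mitochondrial genes, with 1 point per gene above the filter. Bars are medians and dashed lines mark 1.5-fold; the regulators have their median below 0 and the oxygen-regulated genes above, and Ndufa4l2, an isoform, is shown in the last list.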

How the data were processed

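Each deposited value is an intensity on a linear scale. RMA, which corrects background, normalizes arrays and summarises probes, is the method in the submitters' processing notes, with no software, version or build named there. Values ran from 7.34 to 31292 and array medians from 65.0 to 65.7. RMA compresses differences of dim probe sets. From the deposited intensities log2 was taken, and the 0 h value was subtracted from each insulin array.

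Controls made up 64 of 45101 probe sets. The platform annotation, which can be old, named 1 gene for 34958, several for 932 and none for 9147. Of the 10 probe sets with several symbols that name a gene of these families, none was used. The filter is the median over probe sets of the mean log2 intensity, and 11662 genes passed. Of the 71 subunits read, 6 rest on probe sets with the suffix _x_at, 12 on _s_at and 28 on _a_at; the first 2 kinds can also bind related transcripts such as pseudogenes. Chromosomes came from RefSeq (GRCm38.p6), which matched 11624 genes. With 1 array per group there is no test; genes past 1.5-fold were counted. Members and lists were chosen with earlier results of these data known.

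Genes named are the 2 largest differences each way and the brightest and dimmest per complex, those past 1.5-fold at all 3 times, all isoforms, the 3 farthest between insulin arrays, up to 4 per further list and those the labels name. Others were named for their role or after their values were seen. The counting was tested on simulated data. Alternatives were 2 other filters, median centring, quantile normalization, loess (span 0.3), 2 other probe set rules, chromosome medians removed, an added constant of 32, and thresholds of 1.25-fold and 2-fold. Work was done in Python 3.11.15 with statsmodels 0.14.6 for loess, pandas 2.3.3 and numpy 2.4.6 for tables and matplotlib 3.10.9 for plots.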

Additional observations from a re-analysis of the deposited data

How the results depend on the processing

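The number of arrays, 1 per group, limits every value. No paired analysis was possible because each group has 1 array. Medians were taken as unmoved within 0.1 on the log2 scale and counts within 1.5 times, and 126 of 165 values stayed so under the 11 alternatives. Small medians did change sign, in 18 of 99 cases, all of them medians of at most 0.082 in size. Of 29 single genes above the filter 4 changed sign under some alternative: Uqcr10, Uqcrb, Atp5b and Ndufa13, whose mean log2 differences were at most 0.14 in size. Median centring shifted the median over all genes by -0.10, and 10 of 71 subunits changed sign under at least 1 scaling. It gave 1 subunit 1.5-fold higher and 4 lower at 6 h, 1 and 6 at 12 h, and 5 lower at 24 h; a median of -0.046 at 12 h; and complex medians of -0.16, 0.15, -0.054, -0.020 and -0.076 for I to V. Quantile normalization gave 1 higher at 6 h. Loess gave 1 higher at 6 h, and 1 higher and 5 lower at 12 h. The upper filter gave 1 lower at 6 h. With the mean of all probe sets 3 were higher at 24 h and the complex III median was 0.20. With suffixed probe sets left out, 53 subunits remained, 1 was higher at 6 and at 12 h and the complex III median was 0.22. Uqcr10 had a mean log2 difference of 1.96 and 3.73 under these probe set rules, in place of -0.14. With chromosome medians removed 0 were higher at 6, 12 and 24 h, 1 was lower at 24 h, and the complex I and II medians were 0.058 and 0.054. At a threshold of 25%, 13, 17 and 13 were higher and 7, 8 and 9 lower at 6, 12 and 24 h; at a fold of 2, 0 were higher and 1, 1 and 1 lower.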
